A study of Mus musculus with 24 samples.

Results

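*Gata4*, *Gata6*, *Sox17*, *Sox7*, *Dab2*, *Pdgfra*, *Cubn*, *Amn*, *Afp* and *Ttr* are 10 genes associated with primitive endoderm and the visceral endoderm that it forms. They were found by name in a table of 25965 genes, and all 10 names matched. They were followed in RNA-seq of differentiating mouse embryonic stem cells (mESCs) depleted of *Smarcc1* or *Smarca4*, which encode the core subunit and an ATPase subunit of the BAF chromatin remodelling complex. Every library was made from a male C57/Bl6 mESC line expanded in 2i, a medium with inhibitors of MEK and GSK3, and then moved into DME HiHi medium, which contains serum, to differentiate. An shRNA was delivered by virus on day 2, puromycin was applied on day 3, and cells were harvested on days 4, 5, 6 and 7. All cultures, controls included, therefore carried a hairpin and had been selected.

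The groups were 8 libraries with *Smarcc1* knockdown (hairpins Smarcc1.6 and Smarcc1.7), 8 with *Smarca4* knockdown (hairpins Smarca4.4 and Smarca4.6) and 4 with a nonsilencing hairpin (Nons), each hairpin with 1 library per day. The second Nons series was not analysed here, so Nons had 1 library on each day and every comparison with Nons rested on that single series. Neither the number of mESC lines nor whether the hairpins were separate cultures of one line is stated, so *p*-values measure only a spread between libraries that may be technical. In the comparisons of groups and days it was the spread between the hairpins of a gene on the same day, to which Nons added nothing. Totals ranged from 6829596 reads (Smarca4.4 on day 5) to 27472885 reads (Nons on day 4), and all other libraries held at least 15717152. The genotype label of the *Smarca4* libraries names a Smarcc knockdown, whereas their titles name Smarca4, and the titles were followed. *Smarca4* was below Nons of the same day in 8 of 8 of these libraries, at 21.6% to 55.3% of it, and *Smarcc1* was below Nons in 8 of 8 *Smarcc1* knockdown libraries, at 23.7% to 60.1%. The fitted changes were -1.79 on the log2 scale for *Smarca4* (SE 0.288, limma adjusted *p* = 0.00277) and -1.33 for *Smarcc1* (SE 0.205, limma adjusted *p* = 0.00115).

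Primitive endoderm arises beside the pluripotent epiblast in the blastocyst, where FGF signalling favours *Gata6* and the endoderm programme and *Nanog* favours the epiblast. GATA4, GATA6, SOX17 and SOX7 are transcription factors of that programme, PDGFRA is a receptor tyrosine kinase on primitive endoderm cells, and DAB2 is an adaptor of endocytosis. Visceral endoderm then takes up maternal nutrients through cubilin, which is brought to the cell surface by amnionless (*Amn*), and secretes carrier proteins that include alpha-fetoprotein (*Afp*) and transthyretin (*Ttr*). mESCs ordinarily hold little of this programme, although several of these genes are also used by other tissues, *Gata4* and *Pdgfra* by mesoderm and the SOX factors by endothelium.

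Because the knockdowns rest on pairs of hairpins, the guide strands are shown first. They are given 5′ to 3′ as DNA with bases 2 to 8, the seed, in capitals, and each is the exact reverse complement of 22 bases of its target transcript.
Smarcc1.6: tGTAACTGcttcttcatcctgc
Smarcc1.7: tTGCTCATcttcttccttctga
Smarca4.4: tTTATTACtgtctgactccagt
Smarca4.6: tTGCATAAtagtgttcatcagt
The 4 seeds differed. In GRCm38 the Smarcc1.6 target lies at chr9:110177472-110177493 and the Smarcc1.7 target at chr9:110173911-110173932, both on the plus strand in coding exons of *Smarcc1*. The Smarca4.6 target lies in a coding exon of *Smarca4* at chr9:21670504-21670525 and the Smarca4.4 target in its 3′ UTR at chr9:21703327-21703348, also on the plus strand.

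All 10 genes were expressed at low levels. Levels are given as rpm, the number of reads of a gene scaled to a library of 1000000 reads, and in the deepest and shallowest libraries 3 reads, taken as the fewest that can be told from none, were worth 0.109 and 0.439 rpm. The median over 20 libraries was 8.40 rpm for *Dab2*, 2.14 for *Cubn*, 2.11 for *Amn*, 1.86 for *Pdgfra* and 1.56 for *Gata4*. It was 0.643 rpm for *Gata6*, 0.461 for *Sox7*, 0.320 for *Afp*, 0.281 for *Sox17* and 0.0479 for *Ttr*. Divided by exon length, *Amn* and *Dab2* stood highest, with medians of 1.15 and 1.14 rpm per kb. These medians cannot be ranked against each other, since *Amn* spanned 0.255 to 2.75 and *Dab2* 0.0748 to 4.92 rpm per kb over the libraries. *Gata4* followed at 0.401 rpm per kb, then *Pdgfra* at 0.186, *Cubn* at 0.143, *Sox7* at 0.140, *Gata6* at 0.0988, *Afp* at 0.0950, *Sox17* at 0.0589 and *Ttr* at 0.0404, and the ranges of neighbouring genes in this order overlapped. By comparison, the pluripotency factor *Pou5f1* lay between 1171 and 1607 rpm on day 4 and between 131 and 384 rpm on day 7. The endoderm regulator *Foxa2* had 65 reads in all 20 libraries together (median 0.132 rpm, with no read in 5 libraries). *Hnf4a* had 228 reads (median 0.552 rpm, with no read in 3 libraries), and both were singled out after their values were seen. In bulk RNA a change in the number of cells that express a gene cannot be told apart from a change in the RNA per cell.

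**Figure D1:**
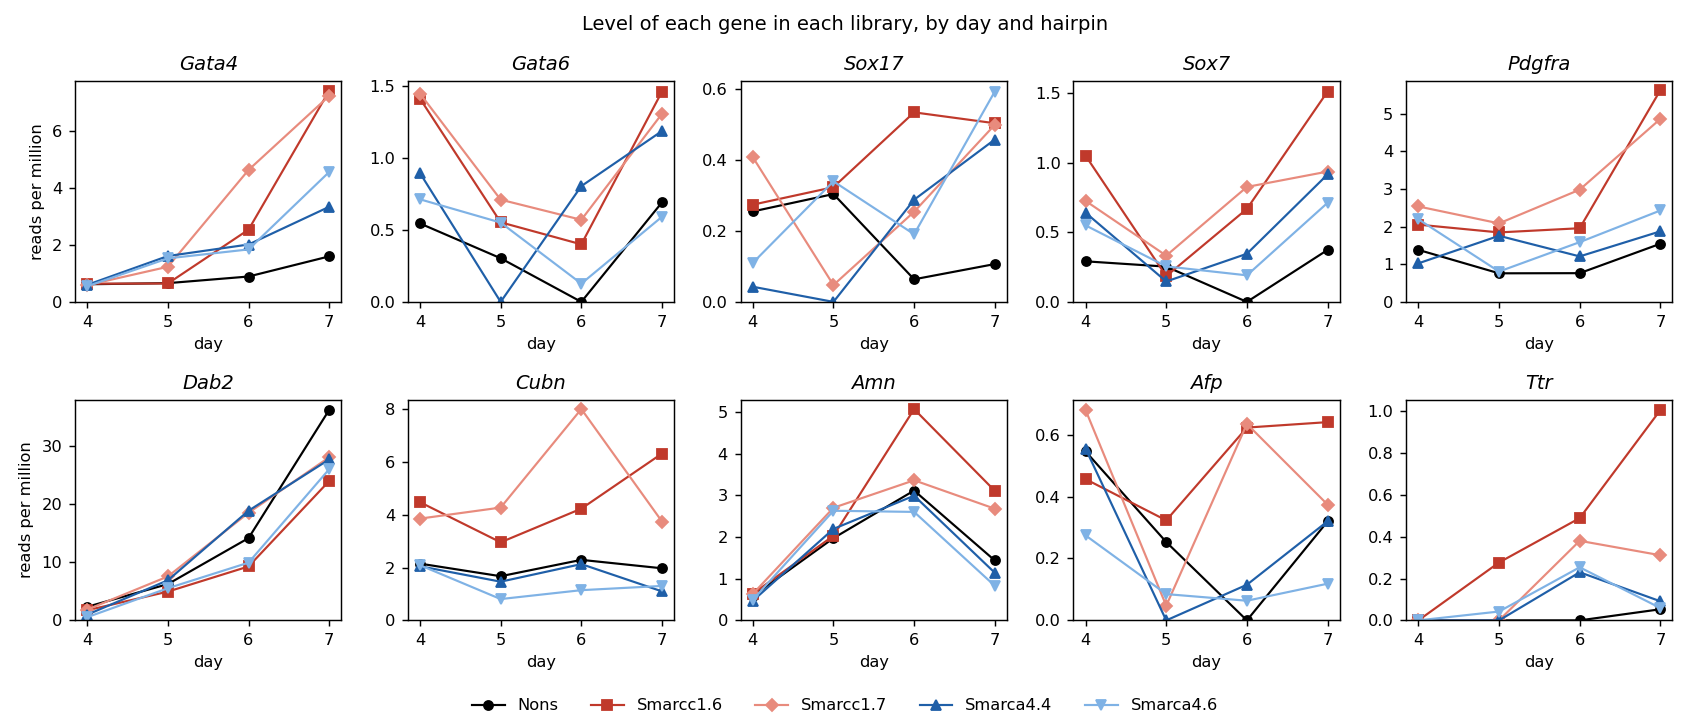
Each panel plots 1 gene, with the day of differentiation on the horizontal axis and rpm on the vertical axis, and each point is 1 library joined to the other days of the same hairpin. The vertical scales differ, from a maximum of 36.1 rpm for *Dab2* to 0.593 rpm for *Sox17*; *Cubn* in the *Smarcc1* knockdown lay above the other libraries on each day, and *Dab2* rose in every series.

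A filter on the mean log2 value over all libraries kept 13296 genes for testing, among them *Gata4*, *Pdgfra*, *Dab2*, *Cubn* and *Amn*. *Gata6*, *Sox17*, *Sox7*, *Afp* and *Ttr* fell below it, with 294, 113, 219, 135 and 63 reads over all libraries, and are described separately. In Nons the log2 values of *Gata4* were -0.692, -0.603, -0.167 and 0.677 on days 4 to 7, an average below the cut of 0. *Gata4* therefore passed the filter only through the knockdown libraries, the groups in which it was then called higher. With no filter it was still called in the *Smarcc1* knockdown but not in the *Smarca4* knockdown. In limma's fit, 3 of the 5 tested genes were higher in the *Smarcc1* knockdown than in Nons and none was lower, where 10.6% of all tested genes were called (7.54% higher and 3.08% lower). In the *Smarca4* knockdown 1 of the 5 was higher and none was lower, where 6.71% of tested genes were called (4.75% higher and 1.96% lower). Between the knockdowns 3 of the 5 were higher with *Smarcc1* depleted, where 4.09% of tested genes were called (2.55% higher and 1.54% lower). With libraries of one series treated as correlated, these counts of 3, 1 and 3 became 0, 0 and 1 (limma adjusted *p* in the *Smarcc1* knockdown from 0.0522 to 0.0957). From day 4 to day 7, averaged over the groups, 3 of the 5 rose and none fell, where 64.5% of tested genes were called (35.7% higher and 28.8% lower). The median change of the 5 genes was 1.14 on the log2 scale in the *Smarcc1* knockdown and -0.18 in the *Smarca4* knockdown, against 0.06 over all tested genes in each. Both knockdowns were compared with the same 4 Nons libraries.

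*Gata4* encodes a zinc-finger factor that can drive mESCs towards primitive endoderm (chr14:63198922-63271692, minus strand, GRCm38). In Nons it stood at 0.619, 0.658, 0.891 and 1.6 rpm on days 4, 5, 6 and 7. Smarcc1.6 gave 0.639, 0.646, 2.54 and 7.41 rpm on the same days and Smarcc1.7 gave 0.589, 1.23, 4.63 and 7.23 rpm. Smarca4.4 gave 0.598, 1.61, 2.02 and 3.34 rpm and Smarca4.6 gave 0.549, 1.53, 1.84 and 4.56 rpm. All 5 libraries thus lay close together on day 4, and by days 6 and 7 all 4 knockdown series were above Nons. From day 4 to day 7 the level grew 2.58-fold in Nons, 11.6-fold and 12.3-fold with the *Smarcc1* hairpins and 5.59-fold and 8.31-fold with the *Smarca4* hairpins. Averaged over days, *Gata4* was higher than Nons by 1.14 on the log2 scale in the *Smarcc1* knockdown (SE 0.231, limma adjusted *p* = 0.00652, higher in 6 of 8 libraries) and by 0.89 in the *Smarca4* knockdown (SE 0.231, limma adjusted *p* = 0.0383, 6 of 8). The knockdowns differed from each other by 0.26 (SE 0.189, limma adjusted *p* = 0.59). The extra slope over days in the *Smarcc1* knockdown was 0.81 log2 units per day (SE 0.207, limma adjusted *p* = 0.103), which missed the threshold in a test that called 0.94% of genes. None of the other 4 tested genes passed it either, nor did any of the 5 in the *Smarca4* knockdown, where 0.135% of genes were called.

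*Pdgfra* (chr5:75152291-75198204, plus strand) marks primitive endoderm among blastocyst cells and is also a mesoderm receptor. In Nons it stood at 1.38, 0.760, 0.763 and 1.55 rpm on days 4 to 7. Smarcc1.6 gave 2.05, 1.85, 1.96 and 5.63 rpm and Smarcc1.7 gave 2.54, 2.09, 2.98 and 4.86 rpm. Both hairpins were above Nons on each day and their lowest value, 1.85 rpm, exceeded the highest Nons value. Smarca4.4 gave 1.02, 1.76, 1.21 and 1.88 rpm and Smarca4.6 gave 2.20, 0.807, 1.59 and 2.43 rpm, ranges that overlapped those of Nons. The difference from Nons was 1.38 on the log2 scale with *Smarcc1* depleted (SE 0.27, limma adjusted *p* = 0.00527, higher in 8 of 8 libraries) and 0.52 with *Smarca4* depleted (SE 0.27, limma adjusted *p* = 0.318, 7 of 8). The direct difference between the knockdowns was 0.86 (SE 0.220, limma adjusted *p* = 0.0488), just past the threshold.

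*Cubn* and *Amn* encode partners in one uptake receptor, and here their courses over the days differed. Against Nons of the same day both were higher in 8 of 8 *Smarcc1* knockdown libraries. In the *Smarca4* knockdown *Cubn* was lower than Nons in 8 of 8 libraries and *Amn* in 6 of 8. *Cubn* (chr2:13276338-13491924, minus strand) stood at 2.15, 1.67, 2.29 and 1.97 rpm in Nons. Smarcc1.6 gave 4.47, 2.95, 4.23 and 6.31 rpm and Smarcc1.7 gave 3.85, 4.27, 8.0 and 3.74 rpm. Smarca4.4 gave 2.05, 1.46, 2.13 and 1.10 rpm and Smarca4.6 gave 2.09, 0.807, 1.14 and 1.30 rpm. All 8 *Smarcc1* knockdown libraries exceeded every Nons and every *Smarca4* knockdown library, while all 8 *Smarca4* knockdown libraries were below Nons of the same day. *Cubn* was higher than Nons by 1.17 on the log2 scale in the *Smarcc1* knockdown (SE 0.265, limma adjusted *p* = 0.0125). Its value in the *Smarca4* knockdown was -0.49 (SE 0.265, limma adjusted *p* = 0.347). The direct difference between the knockdowns was 1.66 (SE 0.217, limma adjusted *p* = 0.00116), the largest of the 5 tested genes. With day 7 against day 4 at -0.23 (SE 0.289, limma adjusted *p* = 0.504), no change of *Cubn* with time was detected.

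*Amn* (chr12:111271111-111276426, plus strand) stood at 0.582, 1.97, 3.12 and 1.44 rpm in Nons on days 4 to 7. Smarcc1.6 gave 0.639, 2.03, 5.07 and 3.11 rpm and Smarcc1.7 gave 0.634, 2.70, 3.36 and 2.68 rpm. Smarca4.4 gave 0.470, 2.20, 2.99 and 1.14 rpm and Smarca4.6 gave 0.494, 2.63, 2.60 and 0.830 rpm. In each series *Amn* rose after day 4 and was lower on day 7 than on day 6, and on day 7 both *Smarcc1* hairpins were above Nons and both *Smarca4* hairpins below. Day 7 exceeded day 4 by 1.5 on the log2 scale (SE 0.213, limma adjusted *p* = 4.42e-05). The *Smarcc1* knockdown was above Nons of the same day in 8 of 8 libraries, but the difference of 0.45 did not pass the test (SE 0.196, limma adjusted *p* = 0.193), and in the *Smarca4* knockdown it was -0.18 (SE 0.196, limma adjusted *p* = 0.682). The knockdowns differed from each other by 0.62 (SE 0.160, limma adjusted *p* = 0.0475).

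*Dab2* (chr15:6299788-6440712, plus strand) rose the most with time. It stood at 2.33, 6.23, 14.1 and 36.1 rpm in Nons, at 1.73, 4.94, 9.26 and 23.9 rpm with Smarcc1.6 and at 1.86, 7.54, 18.5 and 28.0 rpm with Smarcc1.7. Smarca4.4 gave 0.982, 6.88, 18.8 and 27.6 rpm and Smarca4.6 gave 0.549, 5.52, 9.91 and 26 rpm. All 4 knockdown series were below Nons on days 4 and 7, and 2 of 4 were above it on days 5 and 6. Day 7 exceeded day 4 by 4.33 on the log2 scale (SE 0.264, limma adjusted *p* = 2.92e-08), and *Gata4* rose by 2.57 (SE 0.252, limma adjusted *p* = 1.68e-06). The knockdown values of *Dab2* were -0.25 with *Smarcc1* depleted (SE 0.243, limma adjusted *p* = 0.592) and -0.54 with *Smarca4* depleted (SE 0.243, limma adjusted *p* = 0.242), so the gene with the steepest rise over days showed no detectable difference between the groups.

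**Figure D2:**
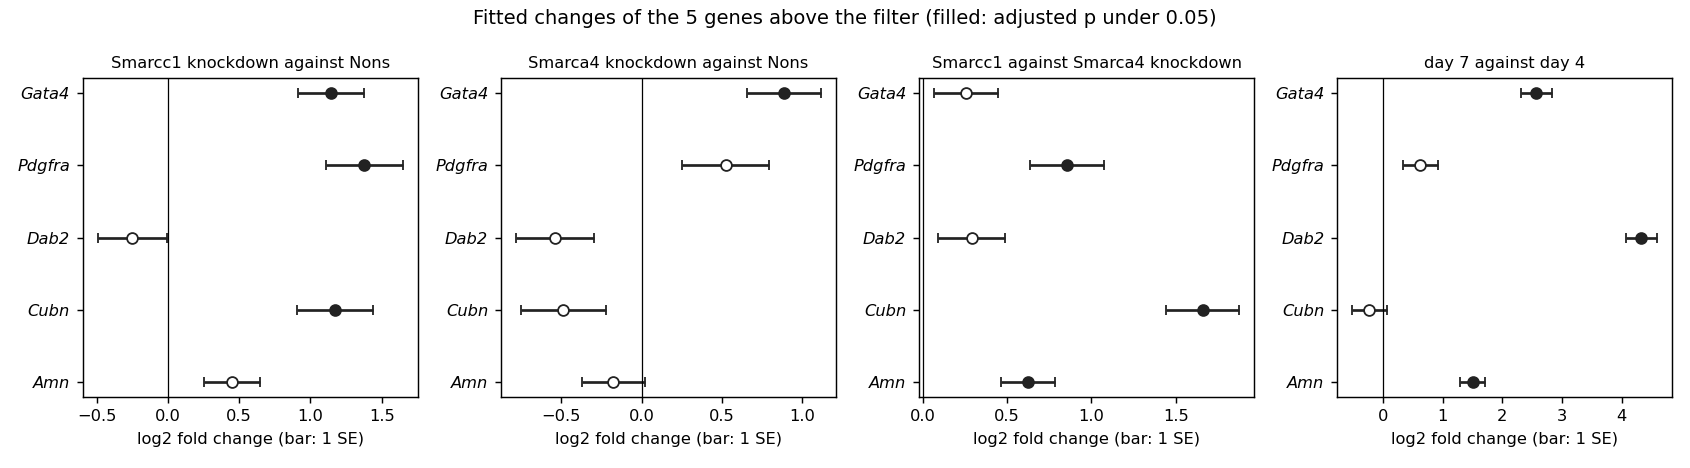
Log2 fold changes of the 5 tested genes in 4 comparisons, with bars of 1 SE and filled points where the adjusted *p* passed the threshold. *Pdgfra*, *Cubn* and *Gata4* are filled to the right of 0 for *Smarcc1* knockdown against Nons, only *Gata4* for *Smarca4* knockdown, and *Dab2* reaches 4.33 for day 7 against day 4; the horizontal scales differ.

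The calls were not all secure. None of the 3 *Smarcc1* knockdown calls passed without hairpin Smarcc1.7 (limma adjusted *p* from 0.065 to 0.0753), without day 7 (from 0.0958 to 0.274) or with libraries of a series treated as correlated (from 0.0522 to 0.0957). *Gata4* was also lost without day 6 (limma adjusted *p* = 0.0798) and *Cubn* without day 4 (limma adjusted *p* = 0.0525), and the *Smarca4* call of *Gata4* was lost when any 1 of the 4 knockdown hairpins was left out. Between the knockdowns the *Pdgfra* and *Amn* calls were lost in the same way, whereas among the hairpins left out *Cubn* was lost only without Smarca4.6 (limma adjusted *p* = 0.0608).

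The hairpins of a gene gave no detectable difference in any of the 5 tested genes. The largest gap between Smarcc1.6 and Smarcc1.7 was -0.48 on the log2 scale in *Dab2* (SE 0.280, limma adjusted *p* = 0.237), and between Smarca4.4 and Smarca4.6 it was 0.54, also in *Dab2* (SE 0.280, limma adjusted *p* = 0.454). Across all tested genes 0% were called in either comparison of hairpins by limma, with 4148 and 1550 genes at an unadjusted *p* under 0.05 for *Smarcc1* and *Smarca4* in turn. Without day 4, 1708 genes (12.8%) were called between the *Smarcc1* hairpins, so these hairpins cannot be taken as alike across all genes.

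*Gata6*, the earliest of the endoderm factors, was sparse in each library. In Nons 15, 6, 0 and 13 reads were counted on days 4 to 7. Smarcc1.6 gave 31, 12, 9 and 32 reads and Smarcc1.7 gave 32, 15, 9 and 21, while Smarca4.4 gave 21, 0, 14 and 26 and Smarca4.6 gave 13, 13, 2 and 10. In rpm *Gata6* was above Nons of the same day in 8 of 8 *Smarcc1* knockdown libraries and 6 of 8 *Smarca4* knockdown libraries. Summed over libraries, the *Smarcc1* knockdown stood at 0.989 rpm against 0.416 in Nons, a ratio of 2.38 (95% exact interval 1.63 to 3.55). The *Smarca4* knockdown stood at 0.688 rpm, a ratio of 1.65 (1.11 to 2.52). These intervals cover counting error only, as do all such intervals here. Such sums weight days by their reads and not equally, and in Nons day 4 was the deepest library.

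*Sox7* and *Sox17* are SOX factors of the endoderm programme that endothelial cells also use. *Sox7* had 8, 5, 0 and 7 reads in Nons, 23, 4, 15 and 33 with Smarcc1.6 and 16, 7, 13 and 15 with Smarcc1.7. It had 15, 1, 6 and 20 reads with Smarca4.4 and 10, 6, 3 and 12 with Smarca4.6. Summed levels were 0.774 rpm in the *Smarcc1* knockdown and 0.507 rpm in the *Smarca4* knockdown against 0.245 rpm in Nons, ratios of 3.16 (95% exact interval 1.96 to 5.35) and 2.07 (1.25 to 3.59). *Sox7* was above same-day Nons in 7 of 8 libraries of each knockdown. *Sox17* (113 reads in all) was above it in 7 of 8 and 5 of 8 libraries, with ratios of 1.82 (1.03 to 3.39) and 1.38 (0.756 to 2.65).

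The secreted proteins were the least abundant. *Ttr* had no read on day 4 in any of the 5 series. In Nons it had 0, 0, 0 and 1 reads, with Smarcc1.6 it had 0, 6, 11 and 22, and with Smarcc1.7 it had 0, 0, 6 and 5. Smarca4.4 gave 0, 0, 4 and 2 reads and Smarca4.6 gave 0, 1, 4 and 1. Of the 50 reads in the *Smarcc1* knockdown 22 came from Smarcc1.6 on day 7, so that 1 library holds much of the sum. The ratio to the single Nons read was 25.1, with a 95% exact interval of 4.30 to 1010, and that of the 12 *Smarca4* knockdown reads was 6.82 (1.01 to 291). *Afp* had 26 reads in Nons, 77 in the *Smarcc1* knockdown and 32 in the *Smarca4* knockdown, ratios of 1.49 (0.942 to 2.42) and 0.699 (0.404 to 1.22). No difference was thus detected in these summed reads.

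With no filter, limma called 6 of the 10 genes higher in the *Smarcc1* knockdown and none lower, where 9.56% of 20605 genes were called (1538 higher and 431 lower). They were *Gata4*, *Pdgfra* and *Cubn* with *Sox7* (1.73 on the log2 scale, SE 0.320, limma adjusted *p* = 0.00337), *Ttr* (1.97, SE 0.496, limma adjusted *p* = 0.0215) and *Gata6* (1.63, SE 0.481, limma adjusted *p* = 0.0484). With libraries of one series treated as correlated, *Sox7*, *Pdgfra* and *Gata4* still passed in this fit (limma adjusted *p* = 0.016, 0.0288 and 0.0373), while *Cubn*, *Ttr* and *Gata6* did not (limma adjusted *p* = 0.0531, 0.0602 and 0.141). The fitted values of the sparse genes depend on the 0.9 read that stands for no read, and 3 of the 4 Nons libraries are at that value for *Ttr*. In the fit with no filter *Sox17* was at 0.97 (SE 0.495, limma adjusted *p* = 0.288) and *Afp* at 0.77 (SE 0.487, limma adjusted *p* = 0.419). None of the 10 was called in the *Smarca4* knockdown, where limma adjusted *p* was 0.11 for *Sox7*, and *Ttr* was the only gene of the 5 called between days 7 and 4 (1.74, SE 0.541, limma adjusted *p* = 0.0137). Nons on day 6 is the library in which *Gata6*, *Sox7*, *Afp* and *Ttr* all had 0 reads and *Sox17* had 1. Without day 6 the limma values of *Sox7*, *Gata6* and *Ttr* were 1.07, 1.15 and 1.66, with adjusted *p* = 0.141, 0.181 and 0.167, and the *Afp* value was -0.13. Without day 5 the values went the other way, with *Sox17* called at 1.72 (limma adjusted *p* = 0.0178) and *Afp* at 1.37 (limma adjusted *p* = 0.0617; 1.67 and 0.0212 with limma-voom), and *Sox7* was then also called in the *Smarca4* knockdown (1.43, limma adjusted *p* = 0.0327). Without day 7 the *Gata6* and *Ttr* calls in the *Smarcc1* knockdown were lost (limma adjusted *p* = 0.152 and 0.253), and without day 4 that of *Gata6* was lost (limma adjusted *p* = 0.126).

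**Figure D3:**
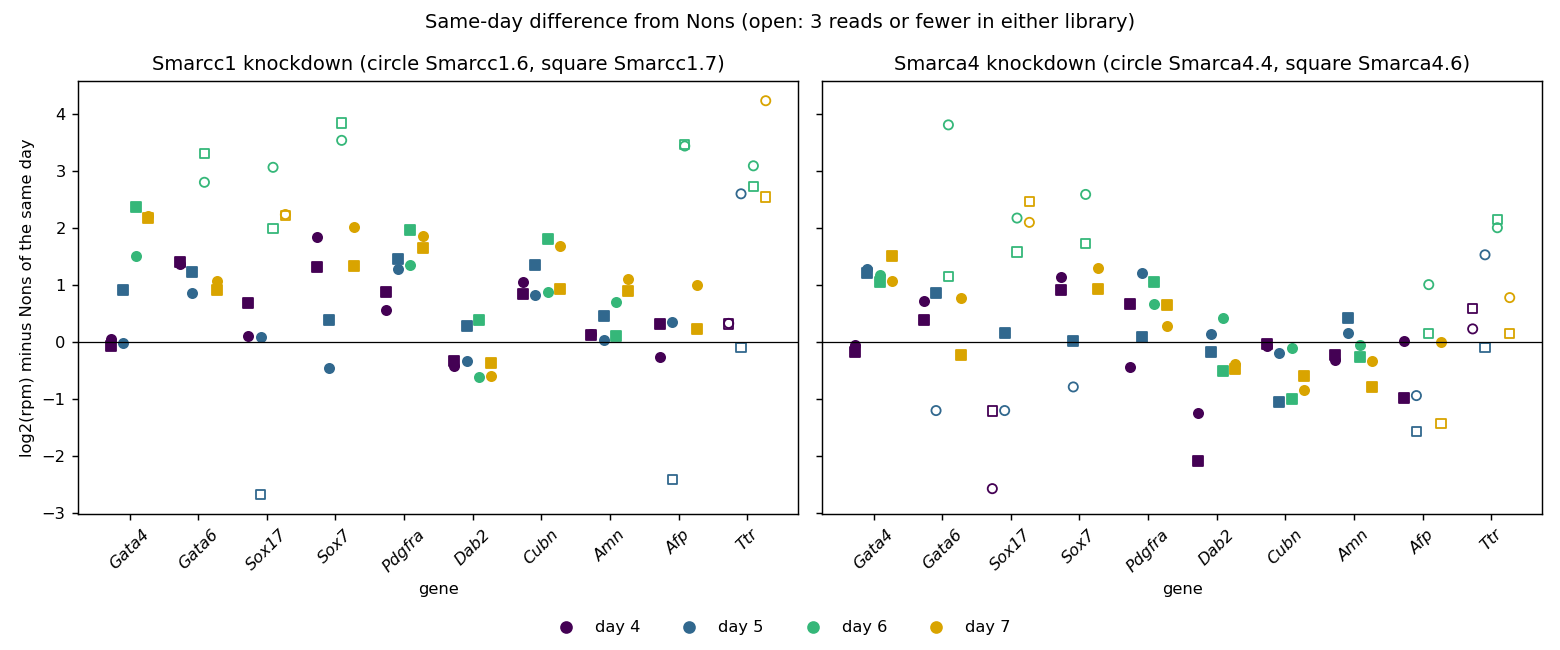
Difference in log2 rpm between each knockdown library and Nons of the same day for the 10 genes, with *Smarcc1* knockdown on the left and *Smarca4* knockdown on the right, days by colour and hairpins by shape. Open points, where either library had 3 reads or fewer, make up the widest differences, and *Cubn* sits above 0 in all 8 *Smarcc1* knockdown libraries and below 0 in all 8 *Smarca4* knockdown libraries. Where both libraries had 0 reads, as for *Ttr* on day 4, the difference reflects only their depths. For *Ttr* with Smarca4.4 on day 5 such a difference was 1.53.

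Among the 5 tested endoderm genes, *Gata4* varied most closely with *Dab2* across the 20 libraries (Pearson *r* = 0.81, all libraries), but after the mean of each day was removed this was 0.03. *Pdgfra* and *Cubn* stood at 0.61 before and 0.73 after removal of day means, and *Cubn* and *Amn* at 0.19 and 0.66. These values describe libraries that share days, hairpins and the same Nons series. The genes most like each in all 20 libraries were *Cpm*, *Appl2* and *Ptpdc1* for *Gata4* (0.98, 0.96 and 0.96), *Gab2*, *Oas3* and *Baiap2l1* for *Dab2* (each 0.97), and *Dmxl2*, *Rabep1* and *Nceh1* for *Pdgfra* (each 0.86). For *Cubn* they were *Dpysl3*, *Mpped1* and *Gpld1* (0.86, 0.84 and 0.78), and for *Amn* they were *Aspg*, *Hey1* and *Ndrg2* (0.96, 0.95 and 0.94). Within days they were *Tmem57*, *Tex261* and *Dnahc10* for *Gata4* (0.95, 0.94 and 0.94), *Jph4*, *Flnc* and *Itga3* for *Dab2* (0.82, 0.78 and 0.78), and *Kit*, *Osbpl1a* and *Sox2ot* for *Pdgfra* (each 0.89). *Cubn* was again nearest *Dpysl3* within days, followed by *Rasgrp1* and *Rimbp3* (0.93, 0.93 and 0.91), and *Amn* was nearest *Pipox*, *Isoc2a* and *Egln2* (0.90, 0.88 and 0.88).

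Other lists of genes were counted in the same fit, and their counts are to be read against 7.54% of tested genes higher and 3.08% lower in the *Smarcc1* knockdown and 4.75% higher and 1.96% lower in the *Smarca4* knockdown. Of 10 inputs to the endoderm choice, all tested, 4 were higher and none lower in the *Smarcc1* knockdown and 2 were higher and none lower in the *Smarca4* knockdown, with medians of 0.25 and 0.14 on the log2 scale. The 2 largest *Smarcc1* rises were the pluripotency factors *Klf4*, by 1.81 (SE 0.198, limma adjusted *p* = 9.95e-05), and *Nanog*, by 1.09 (SE 0.152, limma adjusted *p* = 0.000591). *Nanog* and *Zfp42* rose by 0.84 and 0.78 in the *Smarca4* knockdown (limma adjusted *p* = 0.00554 and 0.00336). Higher levels of *Gata4*, *Pdgfra* and *Cubn* in the *Smarcc1* knockdown thus stood beside higher levels of *Klf4* and *Nanog*, not of the whole list. Of the 10 inputs, 6 were not called in the *Smarcc1* knockdown and 8 in the *Smarca4* knockdown. Their summed rpm was above same-day Nons on each day with Smarcc1.6. With Smarcc1.7 it was above on days 5 and 7 and below on days 4 and 6. Both *Smarca4* hairpins were below Nons on days 6 and 7, and on days 4 and 5 Smarca4.4 was below and Smarca4.6 above.

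Of 22 genes for uptake and secretion by visceral endoderm, 12 were tested. In the *Smarcc1* knockdown 3 were higher and 1 was lower, where 10.6% of tested genes were called, and in the *Smarca4* knockdown 2 were higher and 1 was lower, where 6.71% were called. The cholesterol acyltransferase *Soat2* rose by 1.63 and 1.06 in the *Smarcc1* and *Smarca4* knockdowns (limma adjusted *p* = 0.000164 and 0.00544), and the lipoprotein gene *Apob* rose by 1.59 in the former (limma adjusted *p* = 0.0116). *Apoe* rose by 0.93 and 1.34 in turn (limma adjusted *p* = 0.0135 and 0.00258), and *Lrpap1*, a chaperone of lipoprotein receptors, changed by -0.56 and -1.0 (limma adjusted *p* = 0.0287 and 0.00155). The list's medians were 0.22 and 0.01. Of 10 other endoderm transcription factors only 2 were tested, and *Klf6* changed by -0.41 in the *Smarcc1* knockdown (limma adjusted *p* = 0.0291).

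Of 15 genes of parietal endoderm and basement membrane 14 were tested. In the *Smarcc1* knockdown the laminin gene *Lama1* was higher by 1.27 (limma adjusted *p* = 0.0477) and *Sparc* changed by -0.51 (limma adjusted *p* = 0.0132). In the *Smarca4* knockdown 3 were lower, led by *Fst* at -1.39 and *Serpinh1* at -0.91 (limma adjusted *p* = 0.00722 and 0.00109). Of 8 genes of anterior visceral endoderm 3 were tested. *Hhex* and *Lefty1* were higher by 0.85 and 0.67 in the *Smarcc1* knockdown (limma adjusted *p* = 0.0158 and 0.0107), while *Otx2* changed by -0.45 and -0.60 in the *Smarcc1* and *Smarca4* knockdowns (limma adjusted *p* = 0.0261 and 0.00871). Of the 3 neighbours of *Afp* in the albumin family 2 were tested. *Gc* was higher by 1.21 in the *Smarcc1* knockdown (limma adjusted *p* = 0.0202), *Afm* was at 0.56 (limma adjusted *p* = 0.235), and *Alb*, with 2 reads in all, was not tested.

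**Figure D4:**
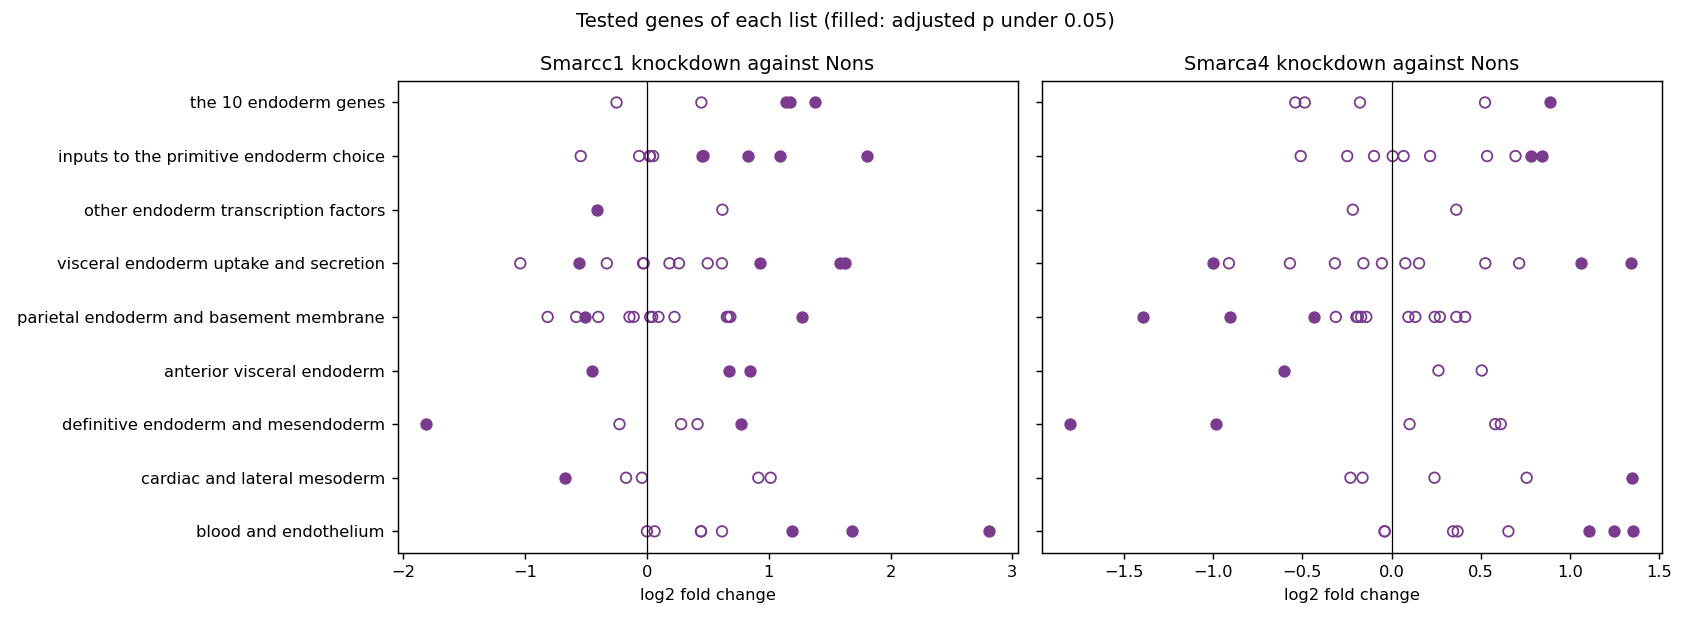
Log2 fold changes against Nons for the tested genes of each list, with *Smarcc1* knockdown on the left and *Smarca4* knockdown on the right, and filled points where the adjusted *p* passed the threshold. Each row is a list. The filled points of the inputs and of the blood and endothelial genes lie to the right of 0 in both panels. The farthest is *Sox18* at 2.81, a gene that passed the filter only through the knockdown libraries.

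Markers of other cell types were counted in the same way. Of 12 blood and endothelial genes 8 were tested, and 3 were higher and none lower in each knockdown, where 7.54% and 4.75% of tested genes were higher with *Smarcc1* and *Smarca4* depleted. They were *Sox18* (2.81, limma adjusted *p* = 1.75e-05), *Pecam1* (1.69, limma adjusted *p* = 1.2e-05) and *Etv2* (1.19, limma adjusted *p* = 0.00947) in the *Smarcc1* knockdown. In the *Smarca4* knockdown they were *Sox18* (1.35), *Etv2* (1.25) and *Gata2* (1.10), with limma adjusted *p* = 0.0055, 0.012 and 0.0285, *Gata2* being named after its values were seen. *Sox18* was sparse, with 537 reads and a median of 1.03 rpm, and its changes place its Nons average below the cut of 0. Like *Gata4*, it therefore passed the filter only through the knockdown libraries in which it was called higher. Whether this held for other listed genes was not tested. The summed level of the 12 genes was 30.2 to 98.8 rpm in Nons, 61.8 to 112 rpm in the *Smarcc1* knockdown and 39.6 to 93.5 rpm in the *Smarca4* knockdown. The endothelial genes *Cdh5* and *Emcn* had 44 and 0 reads in all 20 libraries. *Pecam1*, which mESCs also express, fell by 2.85 from day 4 to day 7 (limma adjusted *p* = 1.01e-08). The part of these cells in the *Sox7*, *Sox17* and *Gata4* values was not tested.

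Of 15 cardiac and lateral mesoderm genes 5 were tested. *Twist1* changed by -0.67 in the *Smarcc1* knockdown (limma adjusted *p* = 0.0433) and *Hand1* was higher by 1.35 in the *Smarca4* knockdown (limma adjusted *p* = 0.0215). Of 10 genes of definitive endoderm and mesendoderm 5 were tested, and *Krt19* changed by -1.82 and -1.80 in the *Smarcc1* and *Smarca4* knockdowns (limma adjusted *p* = 0.000187 and 0.000492). *Trh* was higher by 0.77 in the former and changed by -0.98 in the latter (limma adjusted *p* = 0.0202 and 0.00866). None of 6 liver genes passed the filter, and their summed level was at most 0.646 rpm in any library.

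Promoter windows of 5 of the 10 genes were taken from RefSeq (GRCm38.p6), with 2 windows for *Dab2*, and those of *Gata4*, *Gata6*, *Sox7*, *Sox17* and *Ttr* were not used here. Each window holds 300 bases, 250 before and 50 after an annotated start. The letters AGATAA (or TTATCT on the other strand), a form of the GATA site, occur in 11.2% of all 32851 windows of this length. ACAAT (or ATTGT), a form of the SOX site, occurs in 31.0%. Among the 6 windows of *Pdgfra*, *Dab2*, *Cubn*, *Amn* and *Afp* only the upstream *Dab2* window held a match, 1 to the GATA letters and none to the SOX letters. It is shown with the match in capitals, beside the windows of *Pdgfra* and *Cubn*, which were called higher in the *Smarcc1* knockdown and hold no match.
*Dab2*, chr15:6299539-6299838, plus strand: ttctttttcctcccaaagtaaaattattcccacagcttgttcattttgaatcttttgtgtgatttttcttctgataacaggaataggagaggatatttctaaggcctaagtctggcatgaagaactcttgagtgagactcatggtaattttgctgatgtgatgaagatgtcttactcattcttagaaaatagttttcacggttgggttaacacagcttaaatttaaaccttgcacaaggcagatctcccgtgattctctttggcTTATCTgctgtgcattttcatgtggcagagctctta
*Pdgfra*, chr5:75152001-75152300, plus strand: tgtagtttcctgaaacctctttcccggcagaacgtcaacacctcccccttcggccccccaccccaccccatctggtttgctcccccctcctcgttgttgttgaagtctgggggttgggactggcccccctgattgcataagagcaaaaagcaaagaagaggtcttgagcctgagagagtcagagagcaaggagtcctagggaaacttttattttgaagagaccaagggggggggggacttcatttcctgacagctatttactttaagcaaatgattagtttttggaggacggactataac
*Cubn*, chr2:13491827-13492126, minus strand: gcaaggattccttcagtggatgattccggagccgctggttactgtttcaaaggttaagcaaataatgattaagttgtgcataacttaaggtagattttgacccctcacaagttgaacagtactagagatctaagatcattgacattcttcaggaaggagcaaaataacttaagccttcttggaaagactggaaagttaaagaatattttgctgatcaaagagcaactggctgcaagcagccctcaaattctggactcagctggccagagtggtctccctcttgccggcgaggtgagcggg
These are matches of the exact letters only. Other forms of either site, such as TGATAA in the upstream *Dab2* window, were neither marked nor counted. Binding was not measured in these libraries. Several of the 10 genes overlap transcripts on the opposite strand in the GENCODE annotation, *Gm16311* and *Gm18888* at *Dab2*, *Gm42802* and *Gm42803* at *Pdgfra* and *Gm13270* at *Cubn* among them, and reads of such pairs cannot be told apart unless strand was counted, which is not stated.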

How the data were processed

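RNA was sequenced as single-end reads of 75 bases. The methods and labels describe trimming with trim_galore and alignment with tophat or HISAT2 (genome mm10), after which SeqMonk was used to make the values. The table deposited by the authors holds log2 rpm; its annotation release and strand setting are not given in the sources used here. In these deposited log2 values a gene without reads is written as 0.9 of a read, and whole reads and totals were recovered from this (100% of values below 1000 reads were whole within 0.02). A count of 3 reads was taken as the floor.

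The linear models of limma 3.58.1 (R 4.3.3), with trended eBayes moderation, were fitted to the 13296 genes whose log2 values averaged 0 or more. All 20 libraries entered as 12 means of group and day, leaving 8 residual degrees of freedom that come from the hairpin pairs, and contrasts were averaged over days. Hairpins were compared in a model of series and day. *p*-values were Benjamini-Hochberg adjusted over all tested genes at a threshold of 0.05. Ratios of summed reads have exact binomial 95% intervals from scipy 1.17.1. Counts were simulated for 13354 genes with a dispersion of 0.05 and independent libraries, without any effect of hairpin or series. There 94% of 200 genes given a log2 change of 1 in the *Smarcc1* knockdown were called, with 9 unchanged genes. Measured libraries of a series were correlated by 0.217, so the simulation cannot give the rate of true or false calls in them.

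The 10 genes and the gene lists were chosen with earlier results of these data known. Named genes were the 10 genes, the targets, up to 2 rises and 2 falls of largest change per list among genes called in a knockdown (applied to each knockdown in turn, with *Gata2* added after its values were seen), and the 3 genes most like each tested gene. Alternatives were other filters, pseudocounts, scalings and tools, a replicate block, and leaving out hairpins, days and the shallowest library. Gene coordinates are those of the deposited table. Exon lengths came from GENCODE vM21, guide strands from the study's oligonucleotide list. Coordinates and sequences of *Gata6* and *Ttr* are not reported here.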

Additional observations from a re-analysis of the deposited data

Results flagged for a closer look

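In 3 genes the change against Nons differed between the knockdowns by the direct test. *Cubn* was higher with *Smarcc1* depleted than with *Smarca4* depleted by 1.66 on the log2 scale (limma adjusted *p* = 0.00116), and it was also the gene whose 8 *Smarcc1* knockdown libraries were all above, and 8 *Smarca4* knockdown libraries all below, Nons of the same day. *Pdgfra* differed by 0.86 (limma adjusted *p* = 0.0488) and *Amn* by 0.62 (limma adjusted *p* = 0.0475). Of 18 alternative settings the *Cubn* call held in 17, the *Pdgfra* call in 8 and the *Amn* call in 5, so the latter calls were not secure. No condition had 4 or more libraries, so no single library was tested as an outlier.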

How the results depend on the processing

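The count of the 10 genes called in the *Smarcc1* knockdown against Nons was 3. It was 6 with no filter and with limma-voom on recovered reads without a filter, an alternative chosen after seeing the data, 0 without day 7, and 0 to 3 when 1 hairpin was left out. In the *Smarca4* knockdown the count of 1 became 0 with no filter, with quantile normalization, in the additive model of series and day, and without day 5, 6 or 7, and was 0 when any knockdown hairpin was left out. Between the knockdowns the count of 3 became 1 with no filter, with quantile normalization and without day 4, 6 or 7, and 0 to 1 when 1 hairpin was left out. With the replicate block, a random effect of culture series (correlation 0.217), the counts were 0, 0 and 1 in these comparisons, and 1 gene, *Gata4*, passed the slope test in the *Smarcc1* knockdown (adjusted *p* = 0.0435). These block counts cover the 5 tested genes; with the block and no filter, chosen after seeing the data, 3, 0 and 1 of the 10 genes passed, and the *Gata4* slope did not (adjusted *p* = 0.0848). Over all genes the block moved the calls from 1412 to 605, from 892 to 258 and from 544 to 105. A filter of 10 rpm left none of the 10 genes and 491, 266 and 182 calls, and leaving out day 7 gave 379, 132 and 56. Leaving out day 6 gave 793, 431 and 173, and leaving out day 4 gave 497 in the *Smarca4* knockdown and 327 between the knockdowns. Leaving out Smarcc1.7 gave 843 in the *Smarcc1* knockdown, leaving out Smarca4.4 or Smarca4.6 gave 420 or 277 in the *Smarca4* knockdown, and between the knockdowns leaving out 1 hairpin gave 49 to 263. Without the shallowest library 1067 genes differed between the knockdowns, and with limma-voom and no filter 823. Day 7 against day 4 gave 5538 calls at 10 rpm against 8575. The slope calls, 125 and 18, ranged from 0 to 292 and from 0 to 52. The *Smarcc1* hairpins compared without day 4 gave 1708 calls against 0. The labels do not pair libraries. The hairpins' deviations correlated between days by 0.0233 to 0.823 for *Smarcc1* and by -0.206 to 0.367 for *Smarca4*, so not every pair of days was above 0.1. The cause of these changes was not tested. For the 5 tested genes no log2 value that was called changed direction. Values of tested genes that were not called could span 0, such as *Dab2* between the knockdowns (-0.042 to 0.56). In the genes below the filter 8 values that were not called changed sign: *Afp* in the *Smarcc1* knockdown without day 6 (-0.13 and, with limma-voom, -0.0571), *Sox17* in the *Smarca4* knockdown without day 6 (-0.0431 and -0.13) and without day 7 (-0.18 and -0.32), *Afp* in the *Smarca4* knockdown without day 5 (0.29 with limma-voom), and *Sox17* between the knockdowns without day 4 (-0.0585). With limma-voom and no filter *Sox7* also passed in the *Smarca4* knockdown (1.27, adjusted *p* = 0.047). Depth limits the genes below the filter, whose counts were at most 33 reads in any library; leaving out a day, a hairpin or a filter changes how many libraries or genes enter the adjustment.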
